A study of Mus musculus with 6 samples.

Results

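R-spondins are secreted proteins that strengthen Wnt signalling. They bridge an LGR receptor (Lgr4, Lgr5 or Lgr6) to Znrf3 or Rnf43, a pair of membrane ubiquitin ligases that otherwise remove Frizzled receptors from the cell surface, so that more Frizzled stays there to receive Wnt. In the embryonic heart, R-spondins and Wnt signals act in cardiomyocyte growth and in coronary vessel formation, and in the gonad Rspo1 is known as an ovary-determining signal that acts together with Wnt4. The 9 genes of this system, 4 ligands (Rspo1 to Rspo4), 3 receptors (Lgr4 to Lgr6) and 2 ubiquitin ligases (Znrf3 and Rnf43), were taken by name from the 46983 genes listed, and all 9 were found. The set was chosen by the measured values of these hearts, after the difference in Rspo1 between mutant and control hearts in counts was known, so the differences between the groups in these 9 genes are given as a description, with their standard errors, and the test results printed for them below carry no weight as evidence.

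Whole hearts from E13.5 embryos were sequenced, 1 heart per library, on a C57BL/6 x DBA/2 background. The 3 mutant hearts (replicates 1, 5 and 10) carry TnnT2Cre and floxed Wt1, the Wilms tumour suppressor gene. The 3 controls (replicates 2, 3 and 5) are called wild type in the deposited labels, while the methods of the study give them as embryos without Cre that are homozygous for the floxed allele of Wt1, as the mutants are. The Tnnt2 promoter drives Cre in the cardiomyocyte lineage and, according to the study, also in a part of the epicardium. Nothing in the labels gives the litter or the sex of an embryo. Xist was at 45.3 FPKM or more in wild type replicate 2 and mutant replicates 5 and 10 and at 0.0341 FPKM or less in the other 3 hearts, which had the Y-linked Ddx3y.

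Total counts lay between 44244665 and 56373393 per heart. Wild type replicate 5 had the lowest total and stood somewhat apart, with correlations of log2 CPM (each count scaled to the library size) to the other hearts between 0.974 and 0.982. Markers of heart muscle were abundant: Actc1, cardiac actin, averaged 9387 ± 1173 FPKM and Tnnt2, cardiac troponin T, 3166 ± 48.3 FPKM (SD, n = 3) in wild type hearts. Wt1 itself had a log2 fold change of −0.10 (standard error 0.31), with an adjusted p of 0.990 by the quasi-likelihood method of edgeR after Benjamini-Hochberg correction, and its sign turned with single hearts left out. A count over the whole gene does not separate recombined from intact alleles.

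Rspo1 (ENSMUSG00000028871) lies on chromosome 4 of GRCm38 from 124986430 to 125009099 on the forward strand. The bases around its start are shown because Rspo1 is the member on which the results turn. The promoter of Lgr6 is shown beside it as the one window among the members that holds the letters GCGNGGGNG, the GC-rich form bound by WT1 and EGR zinc fingers. Both are RefSeq windows on GRCm38.p6, 250 bases before to 50 after the start, written 5′ to 3′ along the gene, with matches to GCGNGGGNG on either strand in capitals.
Rspo1, chr4:124986180-124986479, forward strand: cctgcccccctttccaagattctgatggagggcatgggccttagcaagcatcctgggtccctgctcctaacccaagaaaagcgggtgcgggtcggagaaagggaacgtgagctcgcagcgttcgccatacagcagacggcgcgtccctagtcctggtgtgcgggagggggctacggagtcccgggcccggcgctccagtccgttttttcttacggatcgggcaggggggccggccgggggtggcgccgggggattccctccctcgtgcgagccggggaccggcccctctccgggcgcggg
Lgr6, chr1:135105227-135105526, reverse strand: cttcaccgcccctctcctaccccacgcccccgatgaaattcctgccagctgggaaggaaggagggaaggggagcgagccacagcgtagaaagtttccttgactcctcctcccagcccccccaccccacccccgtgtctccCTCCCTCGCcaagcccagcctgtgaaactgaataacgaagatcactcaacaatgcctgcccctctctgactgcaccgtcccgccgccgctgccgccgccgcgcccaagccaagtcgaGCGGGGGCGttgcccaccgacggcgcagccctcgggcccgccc
The Rspo1 window held 0 matches and the Lgr6 window 2, of which 1 starts 110 bases before the start of the gene (reverse strand of the gene) and 1 at base 8 after it. Of 32817 promoter windows of this length, 12.3% held at least 1 match. The TCF/LEF core CTTTGA, searched on both strands, was in 16.0% of all windows and in 0 of the 6 windows found for 5 of the members (Rspo1, Rspo4, Lgr4, Lgr6 and, with 2 windows, Rnf43). The Rspo1 window was 69.0% G and C with 29 CG pairs, against a median of 52.7% G and C over all windows. These are matches of letters in short windows and say nothing about binding.

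In wild type hearts the level per length differed widely between the members. Lgr4, the broadly expressed receptor of the family, had 28.5, 28.7 and 25.9 FPKM in wild type replicates 2, 3 and 5, a mean of 27.7 ± 1.54 FPKM (SD, n = 3). It was 2.83 times the next member, and its range did not overlap with any other. Rspo3 (9.79 ± 1.48 FPKM) and Rspo1 (9.15 ± 0.736 FPKM) came next and were not separated, since their ranges over the wild type hearts overlapped. Znrf3, the ubiquitin ligase, followed at 4.45 ± 0.631 FPKM, below Rspo1 in each wild type heart. Lgr6 (1.11 ± 0.267 FPKM), Rspo2 (1.07 ± 0.724 FPKM), Rnf43 (0.799 ± 0.128 FPKM) and Lgr5 (0.374 ± 0.354 FPKM) were lower, and each of these overlapped in range with its neighbour in the order. Rspo4 was lowest, at 0.0355 ± 0.0361 FPKM. The lengths behind these FPKM were 1140 bases for Rspo1, 2394 for Rspo3, 2858 for Lgr4 and 2406 for Lgr5. The annotation of GENCODE M21 holds 1938, 3090, 5884 and 10264 exon bases for them. The ratio of Lgr4 to the next member, the order of near neighbours, and the overlap of Rspo3 and Rspo1 in range depend on the lengths used.

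Against the other genes tested in these hearts, Lgr4 stood above 75.3% in mean wild type level, Rspo3 above 53.6%, Rspo1 above 52.2% and Znrf3 above 40.0%. Among the receptors Lgr4 was thus the main one, and among the ligases Znrf3. Lgr5 stood above 12.2% only. With TPM in place of FPKM the 9 members kept their order, and without wild type replicate 2 or 3 it was kept by 7 of them.

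How far hearts of the same group differed also varied between the members. In wild type hearts the coefficient of variation of CPM was 4.31% for Lgr4, 9.42% for Rspo1, 13.4% for Znrf3 and 14.2% for Rspo3, against 67.2% for Rspo2 and 93.9% for Lgr5. In the mutant hearts it was 3.15% for Rspo3, 6.59% for Znrf3 and 6.89% for Lgr4, and 33.5% for Rspo1. For Rnf43 it was 16.4% in wild type and 31.5% in mutant hearts, and for Lgr6 24.4% and 34.1%.

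The members are spread over the genome. On GRCm38, Rspo2 lies on chromosome 15 (43020794 to 43170826), Rspo3 on chromosome 10 (29452416 to 29535867), Rspo4 on chromosome 2 (151842927 to 151874668) and Lgr5 on chromosome 10 (115450311 to 115587780). Lgr6 lies on chromosome 1 (134983301 to 135105276), and both ligases lie on chromosome 11, Znrf3 from 5276324 to 5444847 and Rnf43 from 87662722 to 87735539. All 9 are annotated as protein-coding.

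**Figure D1:**
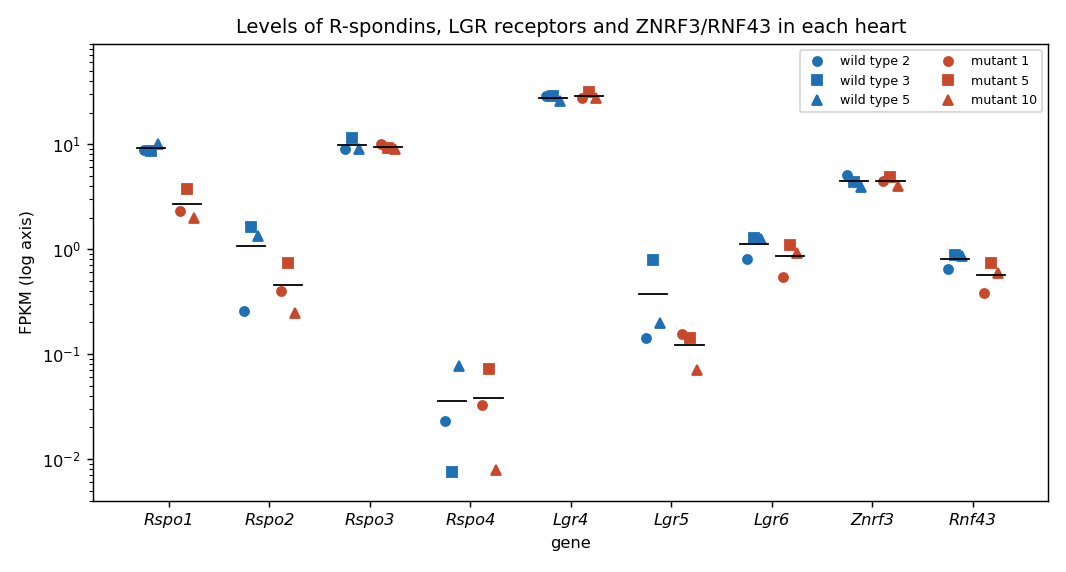
Level of the 9 genes in each of the 6 hearts, in FPKM on a log axis, with wild type hearts in blue, mutant hearts in red, 1 point per heart and a bar at the mean of each group. Lgr4 lies above all others, and the groups are apart only in Rspo1, where the wild type hearts sit at 8.64 FPKM or more and the mutant hearts at 3.75 FPKM or less.

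Rspo1 was lower in every mutant heart than in any wild type heart. The wild type hearts 2, 3 and 5 gave 558, 555 and 504 counts of it, the mutant hearts 1, 5 and 10 gave 135, 223 and 119. As CPM on library sizes normalized by edgeR's TMM method, these were 9.90, 9.64 and 11.4 in the wild type hearts, against 2.60, 4.25 and 2.36 in the mutant ones. The wild type hearts lay close together, and among the mutant hearts replicate 5 was the highest. The group means were 10.3 ± 0.974 and 3.07 ± 1.03 CPM (SD, n = 3 per group), a log2 fold change of −1.75 (standard error 0.24), so that the mutant hearts had 3.36-fold less. In RNA from whole hearts, fewer cells of a type and less RNA per cell cannot be told apart.

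The size of the difference in Rspo1 did not rest on 1 heart. With each heart left out in turn its log2 fold change lay between −2.07 (without mutant replicate 5) and −1.59 (without mutant replicate 10), and it was −1.67 without wild type replicate 5. With the level of Xist as a covariate it was −1.79. Wild type replicate 2 (high Xist) had 9.90 CPM of Rspo1 beside 9.64 and 11.4 CPM in the others. Mutant replicate 1 (with Ddx3y) had 2.60 CPM, between mutant replicates 10 and 5, which had high Xist. The groups thus differ in their mix of such hearts, and the part of embryo sex in the difference was not tested. In the annotation of GENCODE M21, no exon of another gene overlaps the exons of Rspo1.

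Rspo3, which is needed for vessel growth in the embryo and placenta and is expressed in the developing heart, showed no such difference. It had 21.0, 27.0 and 21.6 CPM in wild type replicates 2, 3 and 5 and 23.5, 22.1 and 22.8 CPM in mutant replicates 1, 5 and 10. The mutant hearts lay within the range of the wild type hearts, and the log2 fold change was −0.024 (standard error 0.12), with a range of −0.089 to 0.10 when single hearts were left out. Exons of Gm48159 on the opposite strand cover 13.1% of the exon bases of Rspo3, and the strand setting of the counting is not given.

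Rspo2, a ligand known from limb and lung development, varied strongly between hearts of the same group. It had 0.834, 5.30 and 4.47 CPM in wild type replicates 2, 3 and 5 and 1.31, 2.42 and 0.854 CPM in mutant replicates 1, 5 and 10. Wild type replicate 2 lay below every mutant heart, while the other wild type hearts lay above them all, so the groups overlapped. The log2 fold change of −1.21 (standard error 0.64) was −0.78 when wild type replicate 3 was left out, −1.72 when mutant replicate 5 was, and −0.57 with Xist as a covariate.

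A list of foregut and lung epithelial genes was set beside this spread. Its summed level over 9 genes was 10.4 FPKM in wild type replicate 5, 9.82 FPKM in mutant replicate 5 and 1.77 FPKM in wild type replicate 3, and 1.37 FPKM or less in the other hearts. The 3 hearts with the highest sums were also the 3 with the highest Rspo2, but in another order. Wild type replicate 3 had the most Rspo2 and the lowest sum of the 3. All 9 listed genes had a count in at least 1 heart, and the airway gene Nkx2-1 and the surfactant gene Sftpc were removed by the filter on low counts. The part of such tissue in the level of Rspo2 was not tested.

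Rspo4, known for its role in nail formation, was close to the limit of detection. The wild type hearts 2, 3 and 5 gave 3, 1 and 8 counts of it, the mutant hearts 1, 5 and 10 gave 4, 9 and 1. It was removed by the filter on low counts, and no difference was detectable at this depth.

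The make-up of the R-spondin mRNA therefore differed between the groups. As a share of the summed R-spondin FPKM of a heart, Rspo1 took 49.0%, 39.7% and 49.0% in wild type replicates 2, 3 and 5 and 18.2%, 27.1% and 17.5% in mutant replicates 1, 5 and 10. Rspo3 took the largest share in the mutant hearts (75.3% ± 7.16, against 48.8% ± 4.44 in wild type, SD, n = 3). The sum of the 4 ligands was 18.0, 21.8 and 20.4 FPKM in wild type and 12.8, 13.8 and 11.2 FPKM in mutant hearts. These groups did not overlap, and the difference restates that of Rspo1. The size of the shares and sums depends on the gene lengths behind the FPKM.

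**Figure D2:**
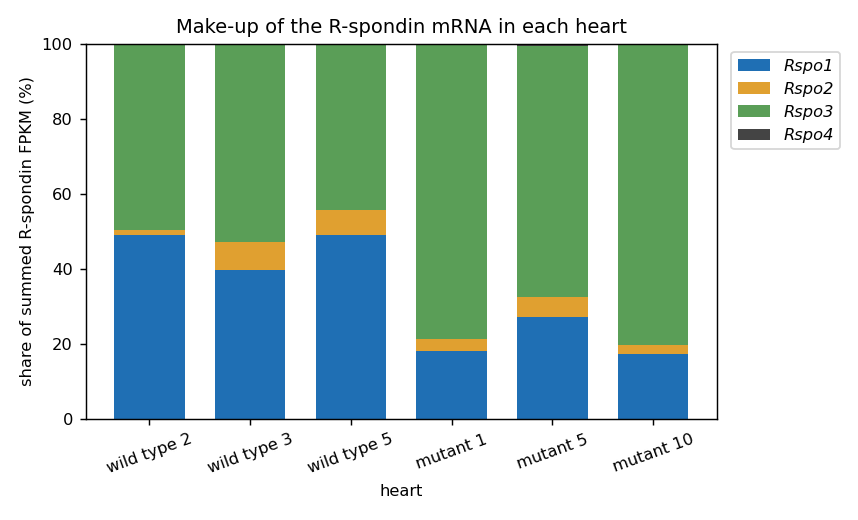
Share of each R-spondin in the summed R-spondin FPKM of a heart, in percent, as 1 stacked bar per heart. Rspo1 makes up 39.7% to 49.0% in the wild type hearts and 17.5% to 27.1% in the mutant hearts, and the share of Rspo4 is 0.526% or less in each heart.

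The receptors and ligases showed smaller differences than Rspo1 or differences that rest on 1 heart. Lgr4 (chromosome 2, from 109917647 to 110014257, its start 4791 kb from that of Wt1 on the same chromosome) had 80.2, 80.3 and 74.4 CPM in wild type replicates 2, 3 and 5 and 77.4, 88.8 and 82.9 CPM in mutant replicates 1, 5 and 10. The groups overlapped, and the log2 fold change was 0.084 (standard error 0.097). Znrf3 had 20.6, 17.4 and 15.9 CPM in the wild type hearts, against 17.8, 19.6 and 17.4 CPM in the mutant ones, in the same order of replicates. Its log2 fold change was 0.022 (standard error 0.13), with the mutant hearts inside the wild type range, and it lay between −0.058 and 0.14 when single hearts were left out, so its sign was not stable. Summed FPKM of the 3 LGR receptors was 29.2 ± 1.70 in wild type and 29.7 ± 2.37 in mutant hearts, and that of both ligases 5.25 ± 0.517 and 5.004 ± 0.494 (SD, n = 3 per group).

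Lgr5, the receptor known as a stem cell marker and itself a Wnt target, was high in a single heart. Wild type hearts 2, 3 and 5 had 19, 106 and 21 counts, and mutant hearts 1, 5 and 10 had 19, 18 and 9. The log2 fold change of −1.58 (standard error 0.68) became −0.45 without wild type replicate 3, which was also the heart with the most Rspo2. Lgr6 had 2.59, 4.10 and 4.13 CPM in the wild type hearts, against 1.75, 3.60 and 3.16 CPM in the mutant ones. Its log2 fold change was −0.35 (standard error 0.31), with −0.091 when mutant replicate 1 was left out, −0.57 when mutant replicate 5 was, and −0.53 when wild type replicate 2 was.

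Rnf43, the second ligase, had 1.44, 1.93 and 1.95 CPM in the wild type hearts, against 0.846, 1.64 and 1.41 CPM in the mutant ones. Mutant replicate 5 lay inside the wild type range, so the groups overlapped. Its log2 fold change was −0.45 (standard error 0.31), with −0.21 when mutant replicate 1 was left out and −0.66 when mutant replicate 5 was. Rnf43 is, like Lgr5 and Znrf3, a known target of Wnt signalling that feeds back on it.

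**Figure D3:**
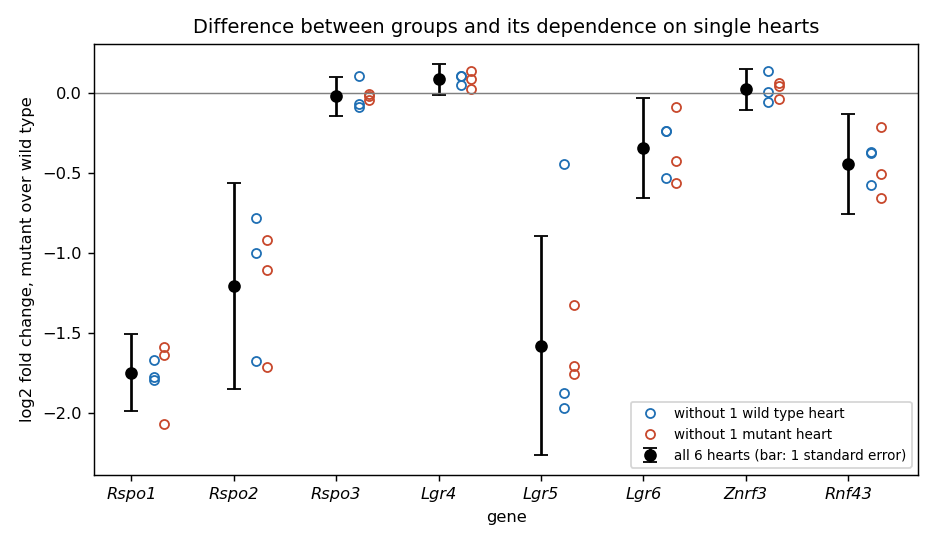
Log2 fold change of mutant over wild type for the 8 members that passed the filter on low counts, with all 6 hearts (black, bar of 1 standard error) and with 1 wild type heart (blue) or 1 mutant heart (red) left out. Rspo1 stays between −2.07 and −1.59, whereas Lgr5 moves from −1.58 to −0.45 without wild type replicate 3.

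Of the 8 members tested, 0 passed the adjusted threshold of 0.05 by edgeR and 2 (Rspo1 and Lgr5) an unadjusted p under 0.05, beside 0% and 5.73% of all 17473 genes tested. The groups were apart in 1 of the 8 (Rspo1), beside 11.2% of all genes tested in either direction and 4.58% lower in the mutant. DESeq2, the tool that the study used, found 1 member (Rspo1), beside 0.66% of the 20013 genes that it could call. Since the members were chosen with this comparison known, nothing is read from these counts. The median log2 fold change was −0.40 over the 8 members and −0.0010 over all genes tested, and it is likewise a description only.

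The genes whose pattern over the 6 hearts was most like that of Rspo1 were sought among 14097 genes with a mean log2 CPM of 0 or more. Likeness was the root mean square difference of log2 CPM, each gene centred on its own mean over the 6 hearts. The nearest was Ntf5 (0.29), a neurotrophin, followed by the collagen chain gene Col8a2 (0.33), the dipeptidase gene Dpep1 (0.40), Rasef (0.40), the potassium channel subunit gene Kcne1l (0.42) and the ephrin gene Efna3 (0.43). Col8a2 had 19.5, 20.5 and 23.3 CPM in wild type replicates 2, 3 and 5 and 7.33, 13.3 and 8.48 CPM in mutant replicates 1, 5 and 10, with replicate 5 the highest of the mutant hearts, as in Rspo1. Ntf5 had 6.83, 5.40 and 5.43 CPM in the wild type hearts, against 2.40, 2.57 and 1.53 CPM in the mutant ones. The groups were apart in these genes other than Efna3, of which 14.1% of the exon bases are covered on the opposite strand. The 6 genes were picked for their likeness in the same hearts, so their differences are a description. Among the members, Rnf43 was nearest to Rspo1 (0.71, with 1.63% of the other genes nearer), then Lgr6 (0.79) and Lgr5 (0.85), while Lgr4 was at 0.96. The members were chosen with the difference in Rspo1 known, so their order is a description too and carries no weight as evidence. Lgr5, with a mean log2 CPM of −1.06, lay below the limit set for the genes compared, and it was high in a single heart.

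**Figure D4:**
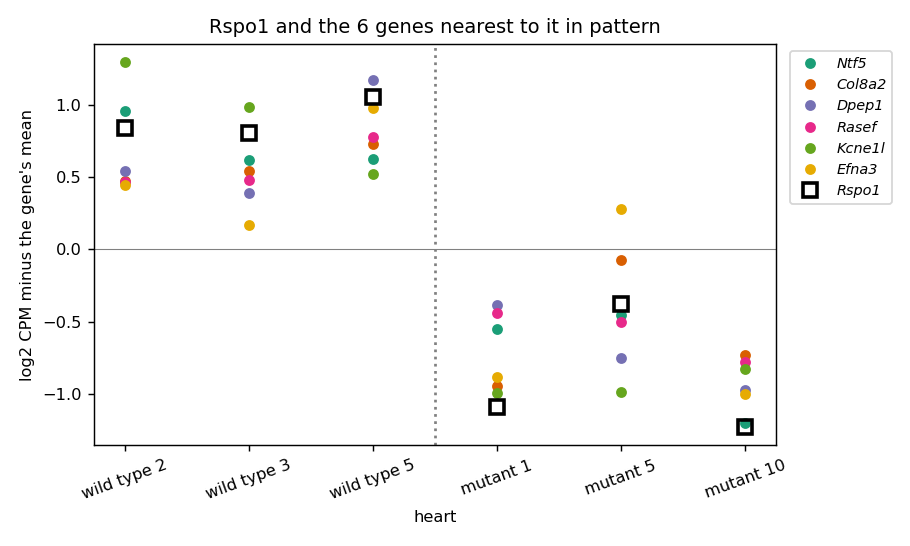
Log2 CPM minus the gene's mean over the 6 hearts for Rspo1 (black squares) and the 6 genes nearest to it in pattern (coloured points), with wild type hearts left of the dotted line. Every one of these genes is above its mean in the wild type hearts, and Rspo1, Ntf5, Col8a2 and Efna3 are highest in mutant replicate 5 among the mutant hearts.

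Markers of cell types were set beside Rspo1. Of 10 genes of the sinus venosus and sinus node, 4 (Shox2, Vsnl1, Tbx3 and Isl1) were lower in the mutant with an unadjusted p under 0.05 and 0 were higher, beside 2.59% and 3.14% of all genes tested. Whatever their p, 8 of the 10 were lower and 2 higher, with a median log2 fold change of −0.26, where 50.2% of all genes tested were lower. The summed level of the 10 genes was 155 to 156 FPKM in wild type and 119 to 134 FPKM in mutant hearts. Shox2, a homeobox gene of this region, had a log2 fold change of −1.02 (standard error 0.12) and an adjusted p of 0.0991 by edgeR, which DESeq2 gave as 2.13e-09. By edgeR it was 0.00789 without the filter on low counts and 0.0181 without wild type replicate 5. Vsnl1 had a log2 fold change of −0.99 (standard error 0.17) and an adjusted p of 0.199 by edgeR and 8.34e-05 by DESeq2. In the same 2 further edgeR fits its adjusted p was 0.0376 and 0.0423. Rsrc1, on the other strand, shares 4.62% of the exon bases of Shox2. These genes, like Tcf21 and Nphs1, were singled out after their values were seen.

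The epicardial and mesothelial list went in both directions, more often higher in the mutant. Of its 15 genes, 10 were higher and 5 lower, with a median log2 fold change of 0.48. With an unadjusted p under 0.05, 1 was lower (Tcf21, a factor of epicardial cells and their fibroblast descendants). The 6 higher at this threshold were Krt8, Aldh1a1, Gpm6a, Upk1b, Krt18 and Msln. Of all genes tested, 2.59% were lower and 3.14% higher in this way, which is also the background for the lists that follow. The abundant markers Upk3b and Krt19 had log2 fold changes of 0.18 (standard error 0.37) and 0.10 (standard error 0.25). Tcf21 had a log2 fold change of −1.10 (standard error 0.15) and an adjusted p of 0.113 by edgeR and 1.66e-07 by DESeq2, and edgeR gave 0.00942 without the filter on low counts and 0.0349 without wild type replicate 5. DESeq2 found 2 more genes of this list, both higher in the mutant: Krt8, a keratin of epithelia (log2 fold change 1.13, adjusted p 0.000253), and Aldh1a1, a retinoic acid-forming enzyme (1.04, adjusted p 0.0415). Over all genes, DESeq2 found 0.66% of the 20013 that it could call. The summed level of the list was 184 to 306 FPKM in wild type and 210 to 317 FPKM in mutant hearts, so the groups overlapped in it. The gonad and kidney genes Foxl2, Nr5a1, Pax2 and Pax8 were removed by the filter on low counts, and Foxl2 had 0 counts in each heart. Of the 6 such genes that passed, 1 (Nphs1) was lower with an unadjusted p under 0.05. Of 10 fibroblast and cushion genes, 2 (Col1a1 and Col1a2, collagen chains) were higher with an unadjusted p under 0.05. The list as a whole had 5 genes lower and 5 higher, with a median log2 fold change of −0.021. Its summed level was 1135 to 1669 FPKM in wild type hearts and 1675 to 2309 FPKM in the mutant ones. This sum is weighted to abundant collagen genes, such as Col1a1 with means of 323 and 608 FPKM. For cardiomyocytes 1 of 10 genes was lower (Myl7), for endothelium 1 of 10 was higher (Emcn), and for smooth muscle 0 of 8 passed an unadjusted p under 0.05. Whatever their p, 9 of the endothelial genes were higher and 1 lower, with a median log2 fold change of 0.28, where 50.2% of all genes tested were lower. The part of any of these cell types in the level of Rspo1 was not tested.

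The other genes of the Wnt pathway were taken from 6 lists. Of their tested genes, 0 passed the adjusted threshold of 0.05 by edgeR, while 2 did so by DESeq2, beside 0.66% of the 20013 genes that it could call. Among the Wnt ligands, 12 of 19 genes passed the filter on low counts, and 4 of these had an unadjusted p under 0.05, beside 5.73% of all genes tested. Wnt2, a ligand of early cardiac and lung mesoderm, was lower in the mutant, with 10.6, 11.6 and 11.6 CPM in wild type replicates 2, 3 and 5 and 8.08, 5.17 and 6.83 CPM in mutant replicates 1, 5 and 10. The groups did not overlap, and the log2 fold change was −0.75 (standard error 0.18), and the adjusted p was 0.405 by edgeR and 0.0259 by DESeq2.

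Wnt5b, a mainly non-canonical ligand, was also lower, at 14.2, 14.6 and 17.9 CPM in the wild type hearts, against 9.96, 9.52 and 10.4 CPM in the mutant ones. Its log2 fold change was −0.64 (standard error 0.13), and the adjusted p was 0.301 by edgeR and 0.0119 by DESeq2. Wnt2b and Wnt9a had values of 0.91 (standard error 0.33) and 0.74 (standard error 0.30) on the log2 scale, with groups that overlapped, and both had an adjusted p of 0.778 or more from edgeR's test. Wnt9a was 0.44 without mutant replicate 10. The most abundant ligand gene was Wnt5a, at 30.7 ± 9.25 FPKM in wild type hearts (SD, n = 3). The median log2 fold change of the ligands was 0.034, with 6 genes lower and 6 higher.

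All 16 genes of the Frizzled receptors and co-receptors, the proteins that Znrf3 and Rnf43 act on and their partners, were tested. Of these, 3 had an unadjusted p under 0.05 and all 3 were higher in the mutant: Ror1 (log2 fold change 0.59, standard error 0.14), Fzd4 (0.34, standard error 0.12) and Fzd6 (0.31, standard error 0.11), with an adjusted p of 0.436 or more from edgeR's test and groups that did not overlap. Of all genes tested, 3.14% were higher at an unadjusted p under 0.05 and 11.2% had groups that did not overlap. Exons on the opposite strand cover 3.15% of the exon bases of Fzd6. Ryk was the most abundant of this list, at 67.7 ± 4.19 FPKM in wild type hearts. The median log2 fold change was 0.076, with 11 genes higher and 5 lower.

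Genes that report Wnt/beta-catenin activity were mostly within the spread between hearts. Of 14 listed, 13 were tested, and 10 were lower and 3 higher in mutant hearts (median log2 fold change −0.11), where 50.2% of all genes tested were lower. Axin2, the negative feedback gene that is the usual readout of the pathway, had 9.63, 9.82 and 9.11 FPKM in wild type replicates 2, 3 and 5 and 8.17, 6.63 and 4.92 FPKM in mutant replicates 1, 5 and 10. The mutant hearts lay below the wild type hearts, with a log2 fold change of −0.51 (standard error 0.16), and the adjusted p was 0.688 by edgeR and 0.341 by DESeq2. Gm11670, on the other strand, shares 3.80% of the exon bases of Axin2. Axin2 was the one gene of the list with an unadjusted p under 0.05, which is 7.69% of those tested, beside 5.73% of all genes tested. Id2 was the most abundant of the list, at 124 ± 11.2 FPKM in wild type hearts.

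Among 17 tested secreted Wnt modulators, 5.88% had an unadjusted p under 0.05, beside 5.73% of all genes tested. This was 1 gene, Sfrp4. It was scarce, at 0.222 ± 0.0290 CPM in wild type hearts, against 0.567 ± 0.169 CPM in the mutant ones (SD, n = 3 per group), with a log2 fold change of 1.34 (standard error 0.40) and an adjusted p of 0.652 from edgeR's test. Sfrp2 was the most abundant modulator gene, at 104 ± 2.91 FPKM in wild type hearts. Of 21 intracellular components, all of them tested, 1 (4.76%) had an unadjusted p under 0.05. This was Tle1, a co-repressor that binds TCF factors and has 2.84% of its exon bases covered on the opposite strand. Its log2 fold change was −0.31 (standard error 0.091), with an adjusted p by edgeR of 0.646. Ctnnb1, which encodes beta-catenin, was at 596 ± 85.4 FPKM in wild type hearts with a log2 fold change of 0.034 (standard error 0.14).

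Other proteins that bind R-spondins include heparan sulphate proteoglycans of the syndecan and glypican families and the BMP receptor Bmpr1a. Beside 5.73% of all genes tested, 1 of 11 such genes (9.09%), all of them tested, had an unadjusted p under 0.05. This was Gpc2, with a log2 fold change of −0.84 (standard error 0.27) and an adjusted p by edgeR of 0.694, and the annotated gene Gm43720 shares 55.6% of its exon bases on the same strand, so its count is uncertain. Gpc3 was the most abundant, at 264 ± 61.0 FPKM in wild type hearts. DESeq2 found 2 of the listed pathway genes (Wnt2 and Wnt5b), both from the ligands and both lower, beside 0.66% of all genes that it could call.

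**Figure D5:**
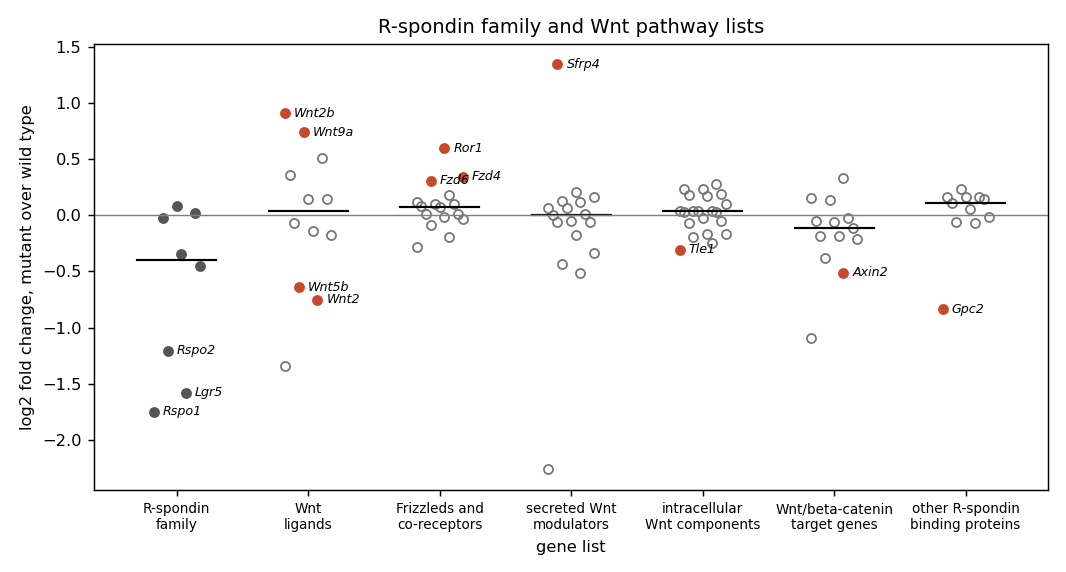
Log2 fold change of mutant over wild type for the tested genes of the R-spondin family (grey) and of 6 Wnt pathway lists, 1 point per gene, with a bar at the median of each list. Filled red points are list genes at an unadjusted p under 0.05 by edgeR. The family has a median of −0.40, and the lists lie between −0.11 and 0.10. The family was chosen with this comparison known, so its median carries no weight as evidence.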

How the data were processed

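RNA from 6 whole hearts was sequenced as paired reads from TruSeq libraries. According to the methods of the study, the authors removed adapters, used STAR for alignment to mm10 and counted uniquely mapped reads per gene with featureCounts (GENCODE M19), whereas the processing notes in the labels name HTSeq and DESeq2. The authors deposited raw counts per gene. They also deposited FPKM values, which the values show to be counts divided by a fixed length per gene and the total count of the heart, and a table of mean FPKM per group, which was not used for any result.

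Counts were tested with edgeR 4.0.16 in R 4.3.3 (quasi-likelihood test, two-sided, TMM, filterByExpr keeping genes with at least 10 counts in enough hearts and 15 in sum, without covariates), with Benjamini-Hochberg adjustment over all genes tested and a threshold of 0.05. The standard error is the log2 fold change divided by the square root of F. CPM use TMM-normalized library sizes, and log2 CPM for likeness a prior count of 2. Alternatives were DESeq2 1.42.0, limma 3.58.1 by voom on counts and by trend on log2 FPKM (pseudocount 1 or 0.1), other size factors, no filter, an adjusted p under 0.1, the level of Xist as a covariate and each heart left out. The fits were tested on simulated data. Positions are from GENCODE M21 (GRCm38) and promoter windows from RefSeq.

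The members and lists were chosen with earlier results of these data known. Named genes are the 9 members, Wt1 and Tnnt2, up to 4 genes per pathway list with the smallest unadjusted p under 0.05, the most abundant gene of each list, the 6 genes nearest to Rspo1 and abundant markers, and a few others were named after their values were seen. Hearts are separate embryos. Intervals for counting error are not given, since the reads carry no molecular identifiers and need not be separate molecules.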

Additional observations from a re-analysis of the deposited data

How the results depend on the processing

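No gene passed the threshold with all hearts in edgeR's quasi-likelihood test (1002 at an unadjusted p under 0.05). DESeq2 found 132 genes, the fit without a filter on low counts 34, and an adjusted p under 0.1 gave 6, while fits with single hearts left out found 0 to 44, the highest without wild type replicate 5. Of the 9 members, DESeq2, the fit without the filter and the fit without wild type replicate 5 each found 1, the others 0 (a range of 0 to 1 with hearts left out). DESeq2 found 2 Wnt ligands, and the other alternatives 0. The cause was not tested.

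In the 13 alternatives the log2 fold change of Rspo1 lay between −2.07 and −1.49. Its groups did not overlap and its difference was known beforehand. A lower value in each refit of these hearts therefore carries no weight as evidence, and the range describes the size only. For Lgr5 the value was −0.26 on the log2(FPKM + 1) scale, which understates changes of low genes, and −0.45 without wild type replicate 3. The sign turned for Znrf3 (−0.058 without wild type replicate 5, −0.042 without mutant replicate 5, −0.033 with Xist as a covariate, and just below 0 in both fits on log2 FPKM) and for Rspo3 (0.10 without wild type replicate 3, 0.015 with Xist as a covariate). It also turned for Wt1 (−0.33 to 0.16 with single hearts left out, above 0 without wild type replicate 2, at 0.13, or mutant replicate 1), for Wnt5a (−0.24 to 0.19, above 0 without wild type replicate 2), for Sfrp2 (−0.018 to 0.27, below 0 without mutant replicate 1) and for Ctnnb1 (−0.072 to 0.099, below 0 when wild type replicate 5 or mutant replicate 5 was left out, and −0.034 with Xist as a covariate). No paired analysis was possible because the labels give no litter and no pairing of the hearts. With 3 hearts per group and counts this low, differences in Rspo4, Lgr5 and Rnf43 are poorly resolved.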

Other observations

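The tested genes around Rspo1 had smaller differences than Rspo1 itself, whose difference was known beforehand. Of 13 tested genes within 250 kb of it, 1 (1110065P20Rik, log2 fold change −0.46, standard error 0.20) had an unadjusted p by edgeR under 0.05. Over all genes tested this share was 5.73%, which is also the background for the counts that follow. The log2 fold changes of all 13 lay between −0.49 and 0.24, with 11 below 0, beside 50.2% of all genes tested. Around Lgr6, 1 of 12 tested genes (Ptprv, log2 fold change −2.01, standard error 0.62) was at an unadjusted p under 0.05, and around Lgr5 1 of 6 (Tspan8, −0.95, standard error 0.29). Around the other 6 members 0 were, with log2 fold changes from −0.26 (near Znrf3) to 0.94 (near Rnf43). These genes were named after their values were seen, and nothing is read from the counts.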
